A study of Mus musculus with 9 samples.

Results

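The CDK inhibitors and D cyclins are 10 mouse genes taken by name: the Cip/Kip inhibitors Cdkn1a, Cdkn1b and Cdkn1c, the Ink4 inhibitors Cdkn2a, Cdkn2b, Cdkn2c and Cdkn2d, and the cyclins Ccnd1, Ccnd2 and Ccnd3. Of the 37980 genes in the expression table, 9 were matched to these names, and Cdkn2d was not analysed here. RNA sequencing compared myeloid progenitors (MPs, Lin-c-kit+Sca1- bone marrow cells of C57BL/6 mice) that carry the Nup98-Hoxa10hd fusion gene (NA) with wild-type (WT) MPs, to ask how the fusion changes expression in committed progenitors. The 4 NA MP samples were Tdtomato+ progeny of NA multipotent progenitors (MPPs), and the 5 WT MP samples were CD45.2+ cells from the control recipients of WT MPPs at the same time. Each sample held 100000 cells, taken 3 months after transplantation by the sample labels, whereas the study's methods give another number of months. In the donors (NA LSL/+; Vav-Cre) the fusion is expressed from the Rosa26 locus once Cre, driven by the Vav promoter of blood cells, removes a stop. MPPs were given together with bone marrow helper cells to irradiated adult CD45.2+ C57BL/6 mice. The study elsewhere follows WT donor cells as CD45.1+, so donor, helper and host origin of the CD45.2+ WT MPs cannot be told apart. Whether each sample is a different mouse is not given, so the tests measure the spread between samples.

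A cell leaves G1 when D cyclins bind and activate the kinases Cdk4 and Cdk6, which phosphorylate the retinoblastoma proteins and so release E2F transcription factors. Ink4 proteins bind Cdk4 and Cdk6 and keep D cyclins off, while Cip/Kip proteins bind complexes of cyclins with kinases and restrain chiefly cyclin E and cyclin A with Cdk2. In the blood system these inhibitors are known for holding stem cells quiescent and for ending division as progenitors mature.

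The values are normalized read counts: RSEM gene counts, already divided by a size factor per sample. Totals ran from 6602851 to 6734284 per sample. Low values were whole multiples of a step of 0.827 to 1.20 per sample, the worth of 1 read, from which depths of 5557716 to 8106138 reads were worked out. NA MP replicate 1 was the shallowest library and NA MP replicate 4 the deepest. As a check of the labels, both fusion partners were higher in NA MPs. Hoxa10 was 155, 124, 120 and 116 in NA MP replicates 1 to 4, and 7.55, 12, 6.11, 9.01 and 5.59 in WT MP replicates 1 to 5. Nup98 averaged 956 ± 81.8 for NA MPs (SD, n = 4) against 599 ± 29.9 for WT MPs (SD, n = 5), and its log2 fold change was 0.67 (limma adjusted p = 1.26e-13).

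Of the 9 members, 6 passed the filter on low values (at least 10 in at least 4 samples) and were tested with limma among 11987 genes. Of these 6, 5 had a Benjamini-Hochberg adjusted p under 0.05: Cdkn1a, Cdkn1b, Cdkn2c and Ccnd1 were higher in NA MPs and Ccnd2 was lower. Across all tested genes 34.3% passed the same threshold, 16.9% higher and 17.3% lower in NA MPs, so calls were common, and 6 genes are too few to set the members apart from that background. The groups did not overlap for 4 members, compared with 26.3% of all tested genes. The median log2 fold change of all tested genes was -0.01. By size, the change of Cdkn1a exceeded that of 96.0% of tested genes, Cdkn2c that of 90.4%, Ccnd1 83.3%, Cdkn1b 78.0%, Ccnd2 66.8% and Ccnd3 39.5%.

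**Figure D1:**
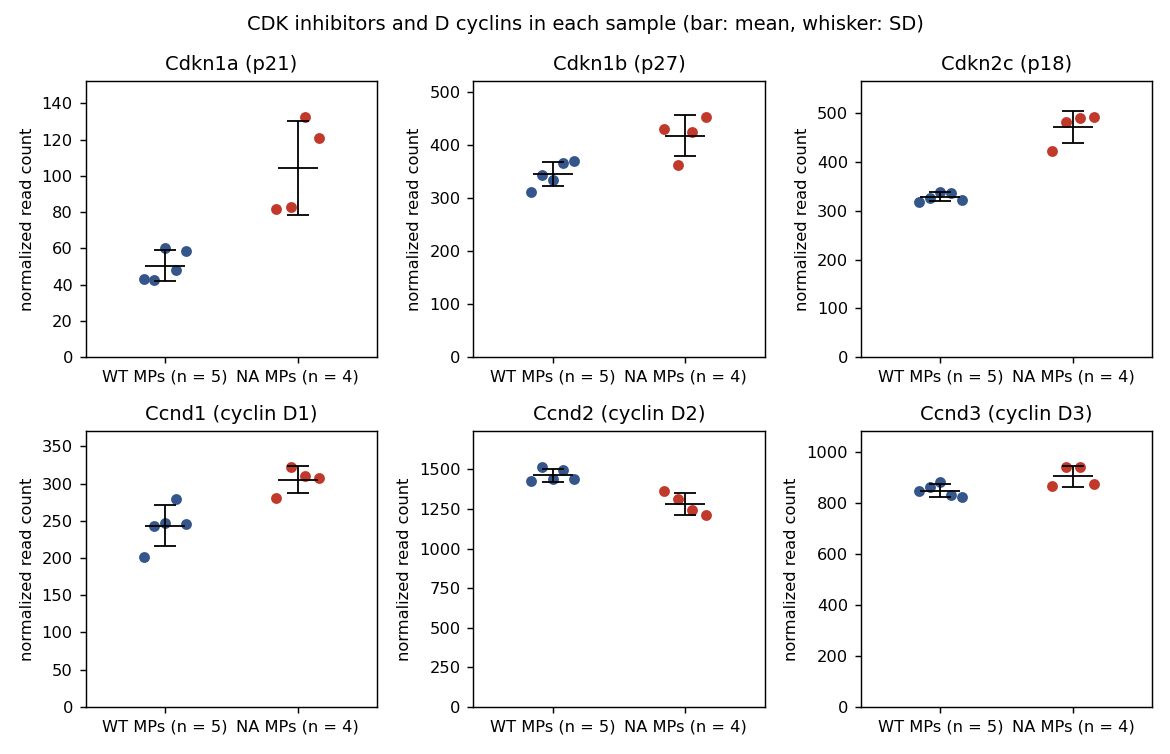
Normalized read count (vertical axis, from 0) of the 6 tested members in each sample, with WT MPs in blue and NA MPs in red; the wide bar is the mean and the whiskers the SD. Cdkn1a, Cdkn2c and Ccnd1 lie above the whole WT MP range in each of the 4 NA MP samples, Ccnd2 lies below it, and Cdkn1b and Ccnd3 overlap.

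The Cip/Kip inhibitors are described first. The 250 bases before each annotated start were taken from RefSeq (GRCm38.p6) for the 7 of 10 members in its promoter table; Cdkn1c, Ccnd1 and Ccnd2 are the others. They are shown for the inhibitors that rose in NA MPs, without bases that GENCODE M21 places in an exon of a protein-coding gene. Cdkn1a has 2 starts, at chr17:29090729-29090975 and chr17:29093519-29093768 (GRCm38, plus strand), and the Cdkn1b window is chr6:134920151-134920400 (plus strand). Capitals mark matches to the p53 half-site in the first, to the GC box GGGCGG in the second, and to the GC box and the CCAAT box (CCAAT) in the third.
Cdkn1a start 1: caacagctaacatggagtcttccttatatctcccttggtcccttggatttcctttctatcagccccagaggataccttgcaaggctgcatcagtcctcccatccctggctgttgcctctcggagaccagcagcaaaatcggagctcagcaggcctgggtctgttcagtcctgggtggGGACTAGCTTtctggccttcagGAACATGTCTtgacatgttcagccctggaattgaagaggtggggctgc
Cdkn1a start 2: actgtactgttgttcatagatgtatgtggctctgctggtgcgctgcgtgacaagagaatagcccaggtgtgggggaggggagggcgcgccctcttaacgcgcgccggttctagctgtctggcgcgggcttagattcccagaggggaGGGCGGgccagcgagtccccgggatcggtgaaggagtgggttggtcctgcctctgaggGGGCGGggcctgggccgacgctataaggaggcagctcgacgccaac
Cdkn1b: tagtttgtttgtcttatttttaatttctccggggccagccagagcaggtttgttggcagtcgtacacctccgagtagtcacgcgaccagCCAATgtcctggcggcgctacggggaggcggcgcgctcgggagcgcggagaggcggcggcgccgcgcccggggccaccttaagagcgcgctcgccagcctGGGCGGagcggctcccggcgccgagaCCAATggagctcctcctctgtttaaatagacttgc

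Matches were sought on both strands in 32851 such windows of mouse genes. The p53 half-site occurs in 7.13% of them and in 2 copies in the first Cdkn1a window, beginning 73 and 51 bases before the start. The GC box occurs in 32.7% of all windows and in 2 copies in the second Cdkn1a window, and the CCAAT box occurs in 33.8% and in 2 copies before Cdkn1b. The 3 windows hold no match to the letters of the E2F site TTTNNCGC (4.28% of all windows), the CHR element TTTGAA (16%), the AP-1 site TGANTCA (6.75%), the Egr site GCGNGGGCG (4.7%), the Foxo site TGTTTAC (3.17%) or the Hox-Pbx site TGATTNAT (2.82%). A match is a description of the letters, and the motifs were chosen after the sequences had been seen.

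Cdkn1a encodes p21, a Cip/Kip inhibitor and a classic target of p53, at chr17:29090976-29100727 (GRCm38, plus strand). Its normalized read count was 81.6, 82.9, 132 and 121 in NA MP replicates 1 to 4, and 43.2, 42.8, 60.1, 48.0 and 58.7 in WT MP replicates 1 to 5. All 4 NA MP samples lay above all 5 WT MP samples, and within NA MPs replicates 3 and 4 were well above replicates 1 and 2. The mean ± SD was 104 ± 26.0 for NA MPs (n = 4) against 50.6 ± 8.35 for WT MPs (n = 5), and the log2 fold change was 1.01 (SE 0.14, 95% confidence interval 0.72 to 1.30, limma adjusted p = 6.72e-07). In bulk samples fewer cells of a type and less RNA per cell cannot be told apart, so a level here is an average over the cells sorted. The gene's exons overlap those of 1 other annotated gene on the opposite strand, and whether the counting used strand is not given in the sources used here, so its counts are uncertain to that extent.

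Cdkn1b encodes p27, the other Cip/Kip inhibitor that passed the filter on low values (chr6:134920401-134925513, plus strand). Its normalized read count was 430, 362, 423 and 452 in NA MP replicates 1 to 4, and 312, 344, 334, 365 and 369 in WT MP replicates 1 to 5. NA MP replicate 2 lay below WT MP replicates 4 and 5, and the other 3 NA MP samples lay above every WT MP sample. The mean ± SD was 417 ± 38.6 for NA MPs (n = 4) against 345 ± 23.5 for WT MPs (n = 5), and the log2 fold change was 0.27 (SE 0.06, 95% confidence interval 0.15 to 0.39, limma adjusted p = 0.000454).

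Cdkn1c encodes p57, a Cip/Kip inhibitor known from quiescent stem cells (chr7:143458339-143461050, minus strand). It was read 6, 5, 2 and 6 times in NA MP replicates 1 to 4, and 1, 5, 5, 6 and 3 times in WT MP replicates 1 to 5. The groups overlapped, and a difference was not detectable at this depth (exact two-sided permutation p = 0.452 over every choice of 4 of the 9 samples, with 0.00794 the smallest p these can give). In 3 of the 9 samples it had no more than 3 reads, the limit that a count of 0 allows for counting error only. Its exons overlap those of 1 antisense gene.

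Per kb of exon, the scale on which genes can be compared, Cdkn1b led the Cip/Kip genes with 75.8 ± 5.15 in WT MPs and 91.5 ± 8.47 in NA MPs. Cdkn1a stood at 14.2 ± 2.35 in WT MPs and 29.4 ± 7.33 in NA MPs. The share of Cdkn1a in the summed Cip/Kip level was 15.5% (13.4% to 18.2%) in WT MPs and 23.6% (19.0% to 28.4%) in NA MPs, so the sample ranges did not overlap. The Cip/Kip sum itself was 91.9 ± 6.95 in WT MPs and 123 ± 13.5 in NA MPs. Sum and shares rest on the whole annotated exon length.

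Immediate early genes, which cells switch on within minutes of stimulation, also differed between the groups. Of 20 such genes on a list, 17 were tested, 16 were higher in NA MPs and 0 lower, and the median log2 fold change was 2.15, and none of the 20 was at 0 throughout. Their summed level was 20919, 14493, 29411 and 31475 in NA MP replicates 1 to 4, and 3406, 4305, 5176, 6927 and 5482 in WT MP replicates 1 to 5. The most abundant was Jun, with a mean of 5342 in NA MPs and 1307 in WT MPs, and the largest rises were those of Fosb (log2 fold change 4.21) and Klf2 (3.24). The NA MP samples highest in this sum, replicates 3 and 4, were also the highest in Cdkn1a, whereas in WT MPs replicate 4 had the highest sum and replicate 3 the highest Cdkn1a. The samples lowest in it, NA MP replicate 2 and WT MP replicate 1, were the lowest of their groups in Cdkn1b, and NA MP replicate 4 was the highest of its group in both. NA MP replicate 1 had a lower sum than replicate 3 and more Cdkn1b, and in WT MPs replicate 4 had the highest sum and replicate 5 the highest Cdkn1b. The part of these genes in the Cdkn1a and Cdkn1b results was not tested.

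**Figure D2:**
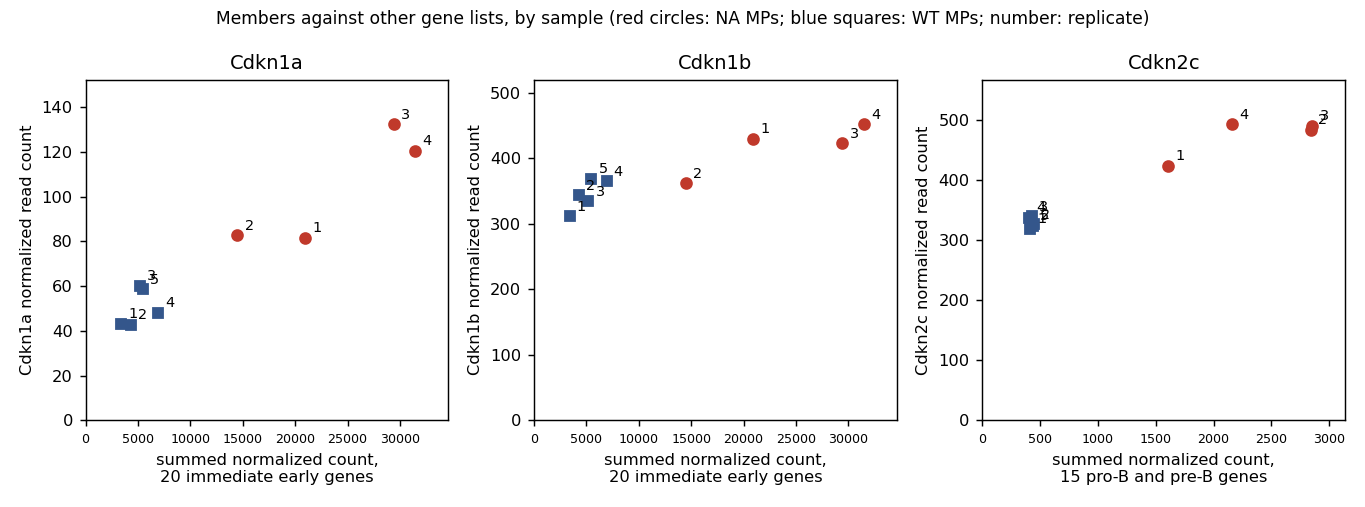
Normalized read count of Cdkn1a, Cdkn1b and Cdkn2c (vertical axes) against the summed normalized count of 20 immediate early genes or 15 pro-B and pre-B genes (horizontal axes), 1 point per sample with its replicate number, NA MPs as red circles and WT MPs as blue squares. NA MP replicate 2 (14493) and WT MP replicate 1 (3406) have the lowest immediate early sums of their groups and the lowest Cdkn1b.

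The genes whose pattern over the 9 samples was most like that of a member were sought among 9781 genes by Pearson's r of log2 values. These samples fall into 2 groups, so r is given here as a description, with the r left after group means are removed beside it. The genes were picked by r over these same samples, which raises the r within groups too. For Cdkn1a they were Mcl1 (r = 0.976, 0.883 within groups), Nr4a1 (0.976, 0.891) and Erbb3 (0.976, 0.884). For Cdkn1b they were Ddx5 (r = 0.990, 0.972 within groups), Zfand5 (0.978, 0.942) and Erlec1 (0.956, 0.919). Nr4a1 is itself on the immediate early list.

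Genes known to induce the inhibitors were then read from the same fit. Of 14 such transcription and chromatin factors, all tested, 3 were higher in NA MPs and 1 lower, beside 34.3% of all tested genes called. The median log2 fold change was 0.00, and the number called ran from 3 to 5 over all alternatives. Egr1 (log2 fold change 2.80) and Klf6 (2.34), both also on the immediate early list, were higher, as was Foxo1 (0.92), which is named after its value was seen. Sp1, a factor that binds GC boxes, was lower (-0.13). Trp53, which encodes p53, had a log2 fold change of -0.05 (limma adjusted p = 0.221) and is also named after its value was seen.

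Other targets of p53 were mixed. Of 22 on a list, 20 were tested, 5 were higher and 3 lower in NA MPs, beside 34.3% of all tested genes called, and the median log2 fold change was 0.03. Plk2 (log2 fold change 3.42) and Pmaip1 (3.03), which encodes the cell death protein Noxa, rose most, and Zmat3 (-0.72) and Dglucy (-0.33) fell most. Plk2 was at 10 or more in 4 NA MP and 0 WT MP samples, so it met the filter on low values only through NA MPs, which favours genes with a difference. Plk2 and Pmaip1, like Cdkn1a, were higher in NA MP replicates 3 and 4 than in replicates 1 and 2: Plk2 was 12, 11.1, 52.3 and 33.9 in replicates 1 to 4, and Pmaip1 was 148, 130, 257 and 247. Among the remaining called targets, named after their values were seen, Trp53inp1 (1.13), Gadd45a (0.42) and Mdm2 (0.14) were higher and Ccng1 (-0.18) lower.

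Among the Ink4 inhibitors, Cdkn2c has 2 starts in RefSeq. The window before the first lies inside an exon in GENCODE and is not shown, and the window before the second, chr4:109665373-109665609 (GRCm38, minus strand), is shown, as Cdkn2c too rose in NA MPs. Capitals mark its 1 match to the Hox-Pbx site TGATTNAT, read on the opposite strand.
Cdkn2c start 2: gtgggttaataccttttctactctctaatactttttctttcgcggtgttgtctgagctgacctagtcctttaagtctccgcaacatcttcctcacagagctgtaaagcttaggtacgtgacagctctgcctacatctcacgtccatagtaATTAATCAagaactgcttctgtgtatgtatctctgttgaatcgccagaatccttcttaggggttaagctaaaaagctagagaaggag
The window before the first start holds 3 GC boxes and 2 Egr sites (GCGNGGGCG), and each Egr site shares letters with a GC box.

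Cdkn2c encodes p18, an Ink4 inhibitor of Cdk4 and Cdk6 known for limiting the renewal of blood stem cells (chr4:109660876-109667189, minus strand). Its normalized read count was 424, 483, 490 and 493 in NA MP replicates 1 to 4, and 318, 326, 339, 337 and 323 in WT MP replicates 1 to 5. Every NA MP sample lay above every WT MP sample, with NA MP replicate 1 set apart below the other 3. The mean ± SD was 472 ± 32.7 for NA MPs (n = 4) against 329 ± 9.05 for WT MPs (n = 5), and the log2 fold change was 0.52 (SE 0.05, 95% confidence interval 0.41 to 0.63, limma adjusted p = 1.77e-10).

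Cdkn2a, which encodes p16 and p19Arf, and its neighbour Cdkn2b, which encodes p15, lie side by side on chromosome 4 (chr4:89274471-89294653 and chr4:89306299-89311039, both on the minus strand). Cdkn2a had 1 read in each of NA MP replicates 2 and 3 and WT MP replicate 2 and 0 in the other 6 samples (exact two-sided permutation p = 0.286). Cdkn2b had 1 read in NA MP replicate 2 and 0 in the other 8 samples (exact two-sided permutation p = 0.444). Both genes stayed under the limit of 3 reads in every sample, so no fold change is given. With both set to that limit, the lowest share of Cdkn2c in the summed per-kb level of the 3 Ink4 genes was 96.5% among NA MP samples. Among WT MP samples it was 95.9%. The limit is for a count of 0, so samples with 1 read could lie lower.

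Polycomb proteins are known to repress the locus of Cdkn2a and Cdkn2b. Of 15 genes on a list, made up of Polycomb genes and Tbx2, 14 were tested (Tbx2 was not), and 4 were higher in NA MPs and 1 lower. The median log2 fold change was 0.07, and the 5 called are about the share called over all tested genes (34.3%). Cbx7 (log2 fold change 0.36) and Cbx8 (0.34), which encode chromatin-binding subunits, rose most, and Eed (-0.13) fell. Bmi1 (0.20) rose too and is named after its value was seen. The number called was 3 when NA MP replicate 1 was left out, and 3 when WT MP replicate 3 was.

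Markers of other cells also differed between the groups. Of 15 pro-B and pre-B genes, 14 were tested, and 14 were higher in NA MPs and 0 lower, and the median log2 fold change was 3.22 and none of the 15 at 0 throughout. Only 7 of the 14 were at 10 or more in every sample (all 7 called), and with no filter beyond a value above 0 all 15 were called. Their summed level was 1607, 2843, 2853 and 2158 in NA MP replicates 1 to 4, and 412, 448, 428, 407 and 434 in WT MP replicates 1 to 5. The most abundant was Dntt, with a mean of 495 in NA MPs and 104 in WT MPs, and Rag1, which encodes a recombinase of antigen receptor genes, rose most (log2 fold change 3.66). NA MP replicate 1, lowest of its group in Cdkn2c, was also lowest in this sum and in depth. Replicate 4, highest in Cdkn2c, was the next lowest in the sum, and in WT MPs replicate 2 had the highest sum and replicate 3 the highest Cdkn2c. Without NA MP replicate 1 the log2 fold change of Cdkn2c was 0.57.

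Of 14 neutrophil genes, 11 were tested, 5 were higher and 2 lower in NA MPs, beside 34.3% of all tested genes called. The median log2 fold change was 0.41, and none of the 14 was at 0 throughout. Their sum was 4487, 5417, 6846 and 6755 in NA MP replicates 1 to 4, and 3994, 4420, 4305, 4312 and 4532 in WT MP replicates 1 to 5, with S100a8 the most abundant (1529 in NA MPs, 1251 in WT MPs). Cd177 (log2 fold change 1.64) and Camp (0.90) rose most, and Mmp8 (-1.09), which was at 10 or more in 2 NA MP samples and all WT MP samples, and Cebpe (-0.22) fell most. Without NA MP replicate 4 the number called was 4. The genes most like Cdkn2c over the 9 samples were Cd177 (r = 0.995, 0.908 within groups), Gmip (0.994, 0.900) and Plekha2 (0.989, 0.792). The lineage antibodies of the study's MP stain, for which the sorted cells are negative, include B220, Mac1 and Gr1. The part of the pro-B, pre-B and neutrophil genes in the Cdkn2c result was not tested.

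The D cyclins moved in different directions. Ccnd1, which encodes cyclin D1 (chr7:144929931-144939925, minus strand), had a normalized read count of 281, 323, 311 and 307 in NA MP replicates 1 to 4, and 202, 243, 247, 279 and 245 in WT MP replicates 1 to 5. The lowest NA MP sample, replicate 1, lay just above the highest WT MP sample, replicate 4, so the groups did not overlap but nearly touched. The mean ± SD was 305 ± 17.6 for NA MPs (n = 4) against 243 ± 27.5 for WT MPs (n = 5), and the log2 fold change was 0.33 (SE 0.07, 95% confidence interval 0.19 to 0.48, limma adjusted p = 0.000213).

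Ccnd2, which encodes cyclin D2 (chr6:127125162-127152193, minus strand), went the other way. Its normalized read count was 1364, 1312, 1241 and 1210 in NA MP replicates 1 to 4, and 1424, 1517, 1437, 1497 and 1439 in WT MP replicates 1 to 5. Every NA MP sample lay below every WT MP sample. The mean ± SD was 1282 ± 69.3 for NA MPs (n = 4) against 1463 ± 41.3 for WT MPs (n = 5), and the log2 fold change was -0.19 (SE 0.04, 95% confidence interval -0.26 to -0.12, limma adjusted p = 3.58e-05).

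Ccnd3, which encodes cyclin D3 (chr17:47505051-47599691, plus strand), did not pass the threshold. Its normalized read count was 866, 939, 942 and 874 in NA MP replicates 1 to 4, and 846, 864, 880, 830 and 824 in WT MP replicates 1 to 5. NA MP replicates 2 and 3 lay above all WT MP samples, and replicates 1 and 4 lay among them. The mean ± SD was 905 ± 41.1 for NA MPs (n = 4) against 849 ± 23.6 for WT MPs (n = 5), and the log2 fold change was 0.09 (SE 0.04, 95% confidence interval 0.01 to 0.17, limma adjusted p = 0.0669). Its call turned on single samples: without NA MP replicate 1 the log2 fold change was 0.11 (limma adjusted p = 0.0325), and without NA MP replicate 4 it was 0.11 (limma adjusted p = 0.0498), while over all alternatives the adjusted p ran from 0.0325 to 0.210. The exons of Ccnd1 overlap those of 1 other gene, those of Ccnd2 2 antisense genes and those of Ccnd3 1 gene, so their counts carry the same uncertainty about strand.

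Per kb of exon the summed D cyclin level was 304 ± 8.83 for NA MPs (SD, n = 4) and 304 ± 9.21 for WT MPs (SD, n = 5). Within that sum the share of Ccnd2 was 51.2% ± 0.82 (SD) in WT MPs and 44.8% ± 2.06 in NA MPs. Ccnd1 held 17.0% ± 1.52 in WT MPs and 21.3% ± 1.13 in NA MPs. For both cyclins the sample ranges of the groups did not overlap, whereas Ccnd3 held 31.9% ± 1.19 and 33.9% ± 1.08, with overlap. The sum and the shares rest on the whole annotated exon length, so they depend on which exons the cells use. Without that division the D cyclin counts summed to 2492 ± 75.8 for NA MPs and 2555 ± 64.2 for WT MPs (SD).

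**Figure D3:**
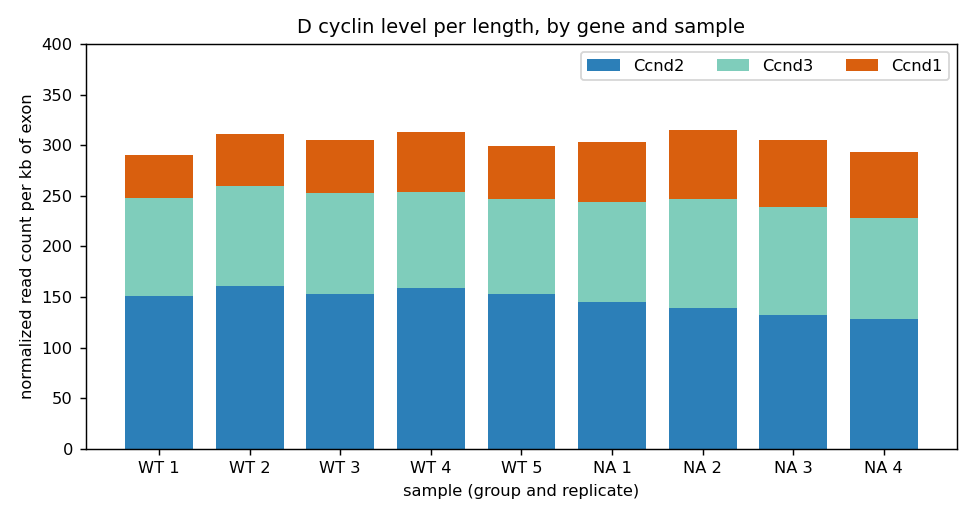
Normalized read count per kb of exon of the 3 D cyclins, stacked for each sample, from 0. The stacks reach 291 to 313 in WT MPs and 293 to 315 in NA MPs, with Ccnd2 (blue) a smaller and Ccnd1 (orange) a larger piece in NA MPs.

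Ordered by level per kb, WT MPs ran from Ccnd2 (155 ± 4.39) through Cdkn2c (122 ± 3.37), Ccnd3 (96.7 ± 2.70), Cdkn1b (75.8 ± 5.15) and Ccnd1 (51.6 ± 5.84) to Cdkn1a (14.2 ± 2.35) and Cdkn1c (1.89). No neighbours in that order overlapped across the WT MP samples. In NA MPs Cdkn2c came first (176 ± 12.2), followed by Ccnd2 (136 ± 7.37), Ccnd3 (103 ± 4.69), Cdkn1b (91.5 ± 8.47), Ccnd1 (64.9 ± 3.73), Cdkn1a (29.4 ± 7.33) and Cdkn1c (2.38). There the values of Ccnd3 (98.6 to 107) and Cdkn1b (79.5 to 99.3) overlapped. The per-kb level of Cdkn2c relative to Ccnd2 was 1.09, 1.29, 1.38 and 1.43 in NA MP replicates 1 to 4, and 0.783, 0.753, 0.827, 0.789 and 0.787 in WT MP replicates 1 to 5. These levels rest on the whole annotated exon length, so the order depends on which exons the cells use.

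The genes most like Ccnd1 over the 9 samples were Itga1 (r = 0.964, 0.898 within groups), Scpep1 (0.964, 0.900) and Wasf2 (0.961, 0.882). Those most like Ccnd2 were Tjp1 (r = 0.960, 0.816 within groups), Zdhhc6 (0.954, 0.782) and Ubap2 (0.950, 0.764). These 3 genes were lower in NA MPs, as Ccnd2 was, with log2 fold changes of -0.67, -0.22 and -0.16.

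Erythroid markers were lower in NA MPs too. Of 18 erythroid genes, 16 were tested, and 15 were lower in NA MPs and 0 higher, and the median log2 fold change was -0.96 and none at 0 throughout. Their sum was 8217, 6705, 7229 and 8609 in NA MP replicates 1 to 4, and 14274, 14302, 13145, 12842 and 13315 in WT MP replicates 1 to 5, and the most abundant gene was Car1 (1725 in NA MPs, 2828 in WT MPs). Sptb, which encodes a spectrin of the red cell membrane, fell most (log2 fold change -1.43). Their part in the Ccnd2 result and in the cyclin results that follow was not tested.

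The kinases that D cyclins activate did not pass the threshold. Cdk4 averaged 2810 ± 37.7 in NA MPs against 2901 ± 60.1 in WT MPs, with a log2 fold change of -0.05 (limma adjusted p = 0.208), although the groups did not overlap (2761 to 2847 and 2852 to 2983). Cdk6 averaged 1354 ± 88.1 in NA MPs against 1444 ± 75.6 in WT MPs, with a log2 fold change of -0.09 (limma adjusted p = 0.0754). Cdk6 passed the threshold without NA MP replicate 4 (-0.14, limma adjusted p = 0.00632) and without WT MP replicate 1 (-0.13, limma adjusted p = 0.00705), within a range of 0.00632 to 0.261 over all alternatives.

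Other genes of this step were read as a list, with 34.3% of all tested genes called, 16.9% higher and 17.3% lower. Of 11 G1 and S phase kinases, cyclins and activators, Cdk4 and Cdk6 included, 10 were tested, 1 was higher and 3 lower in NA MPs, and the median log2 fold change was -0.09, and Ccna1 was at 0 throughout. Ccne1, which encodes cyclin E1, was 151, 191, 189 and 183 in NA MP replicates 1 to 4, and 295, 293, 234, 240 and 236 in WT MP replicates 1 to 5. Every NA MP sample lay below every WT MP sample, with a log2 fold change of -0.53 (SE 0.08, limma adjusted p = 1.63e-06). Ccna2 (-0.24), which encodes cyclin A2, and Ccne2 (-0.21) were lower, and Mnat1 (0.20), a subunit of the kinase that activates Cdks, was higher. The number called on this list ran from 2 (without NA MP replicate 3) to 6 (without WT MP replicate 1).

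Among 13 pocket protein, E2F and DP genes, all tested, 1 was higher and 3 lower in NA MPs, with a median of -0.02, beside 34.3% of all tested genes called. E2f2, which encodes an activating E2F, was 180, 242, 288 and 214 in NA MP replicates 1 to 4 and 166, 159, 178, 167 and 173 in WT MP replicates 1 to 5, so the lowest NA MP sample lay just above the highest WT MP sample (log2 fold change 0.43, limma adjusted p = 0.00063). E2f4 (-0.28), E2f3 (-0.20) and Rbl1 (-0.11), which encodes the pocket protein p107, were lower. The number called ran from 2 to 5 over all alternatives, and was 2 without WT MP replicate 2 and when the variance prior had no trend or robust option.

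**Figure D4:**
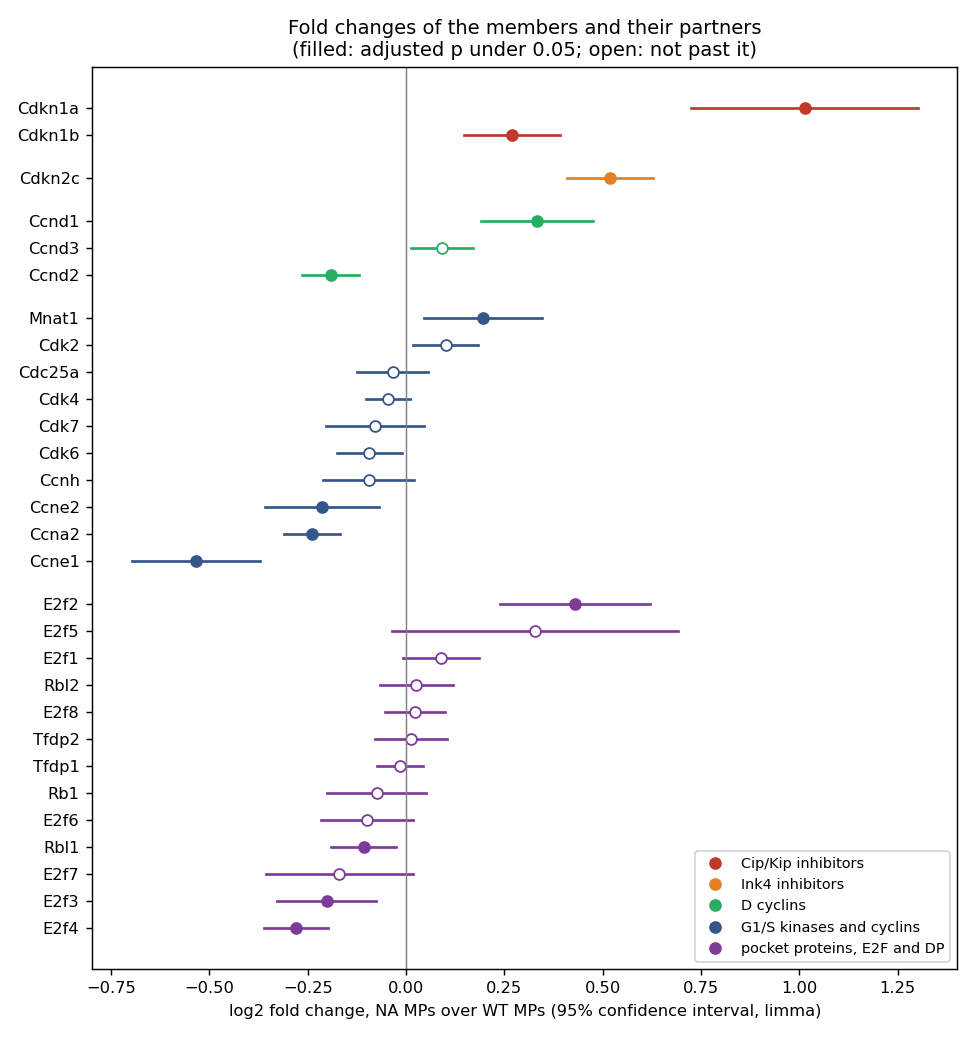
Log2 fold change of NA MPs over WT MPs (horizontal axis) with its 95% confidence interval from limma for each tested member, G1 and S phase kinase or cyclin, and pocket protein or E2F gene; filled points have an adjusted p under 0.05. Cdkn1a lies farthest to the right at 1.01 and Ccne1 farthest to the left at -0.53.

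Genes that take part in degrading the inhibitors and D cyclins were read as a list. Of 16 such genes, all tested, 6 were lower in NA MPs and 0 higher, beside 17.3% lower and 16.9% higher over all tested genes, and the median log2 fold change was -0.08. The number called ran from 4 to 8 over all alternatives. Ubac1 (log2 fold change -0.43), part of a ligase for p27, and Skp2 (-0.38), which directs p27 to degradation, fell most. These values are RNA levels, and p27 protein was not measured in these samples. Skp2 was 188, 195, 207 and 204 in NA MP replicates 1 to 4, and 287, 256, 232, 270 and 254 in WT MP replicates 1 to 5, with no overlap between the groups.

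**Figure D5:**
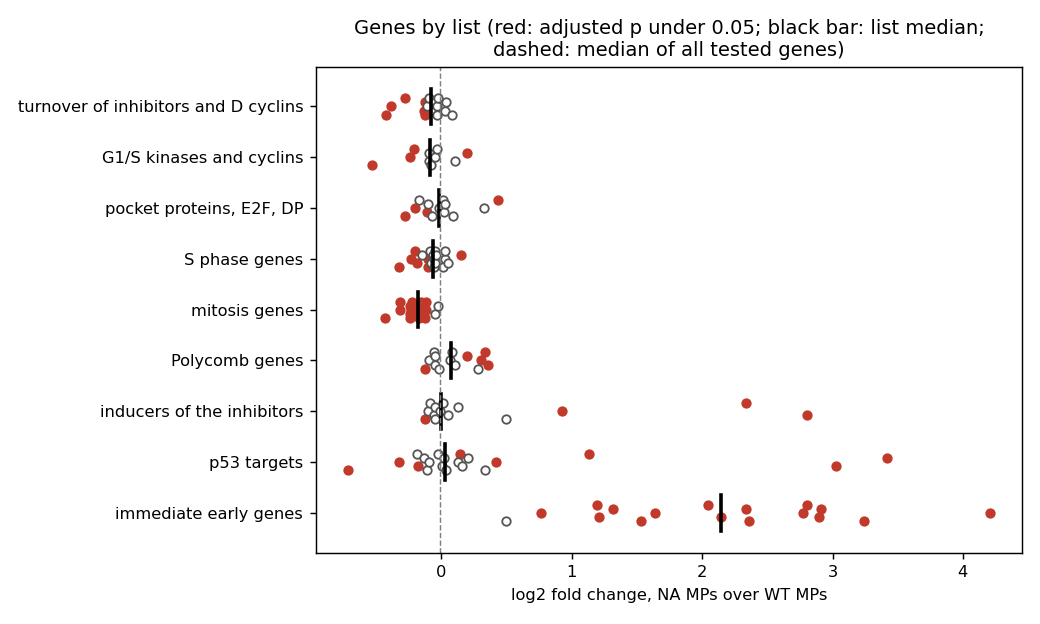
Log2 fold change of NA MPs over WT MPs (horizontal axis) for each tested gene of 9 lists; red points have an adjusted p under 0.05, the black bar is the median of the list and the dashed line the median of all tested genes (-0.01). The mitosis genes lie to the left around -0.18, and the immediate early genes to the right around 2.15.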

How the data were processed

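Poly(A) RNA of 9 samples was sequenced. The authors demultiplexed reads with bcl2fastq and quantified genes with RSEM on mm10 (versions and annotation not given in the sources used here), and their methods name DESeq2 for normalization. The deposited values were treated as a signal (RSEM gene counts divided by a size factor), although they were described as raw: 97.3% to 97.6% of values above 0.5 were whole multiples of a per-sample step within 0.01, and the median ratio to the geometric mean of the samples was 1.002 to 1.005. The analysis plan had assumed raw counts and a test for counts. Since the values are already normalized, limma 3.58.1 (R 4.3.3; trend and robust options) was used on log2(value + 1), with genes at 10 or more in at least 4 samples, Benjamini-Hochberg adjustment over 11987 genes and a threshold of 0.05. The pseudocount and this filter were chosen after the values were seen, and fold changes on this scale understate those of low genes. The limma step was tested on simulated data.

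Gene names matched 32916 of 37980 identifiers, and coordinates and exon lengths are from GENCODE M21 (GRCm38). For members under the filter an exact two-sided permutation test was used. The members and gene lists were chosen with earlier results of these data known. Genes named are the members, every called gene of the kinase and cyclin and the E2F lists with Cdk4 and Cdk6, the 2 largest called rises and falls of each other list, the 3 genes most like each called member (mean log2 value of at least 3), and Nup98 and Hoxa10; others are named after their values were seen, and some genes under this rule are not reported here. Of the 84 genes under this rule, 28 overlap an exon of another gene, so their counts are uncertain where strand was not used. Alternatives changed the scaling, filter, pseudocount, variance prior or sample weights, added a replicate block, or left out each sample. Motif windows are the 250 bases before each RefSeq start (GRCm38.p6).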

Additional observations from a re-analysis of the deposited data

Results flagged for a closer look

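Each result below has 1 sample far from the others of its group, by the gap to its nearest neighbour over the range of the group. Chance marks about 1 in 20 groups, and 16 marks were found in 213 groups examined, where chance gives about 10.7. None was weighed for a cause. Among the members, Cdkn2c was 424 in NA MP replicate 1, below 483 to 493 in the other 3. Cdkn2a was 0.856 in WT MP replicate 2 and 0 in the other 4, and Cdkn2b was 1.01 in NA MP replicate 2 and 0 in the other 3, each a value of 1 read.

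Among the partners, Mnat1 was 169 in WT MP replicate 5, below 195 to 203 in the other 4, and Cdk6 was 1312 in WT MP replicate 1, below 1451 to 1499. The summed inducers of the inhibitors were 7355 in WT MP replicate 1, below 7814 to 7978, and the summed mitosis genes were 21916 in WT MP replicate 4, below 22486 to 22616. Cbx7 was 168 in NA MP replicate 1, above 137 to 142.

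Among the cell markers, Mecom was 179 in NA MP replicate 1, above 153 to 157. Cd34 was 2488 in WT MP replicate 4, above 2357 to 2384, and Vwf was 263 in WT MP replicate 2, above 221 to 230. Hdc was 1221 in WT MP replicate 5, below 1316 to 1351, and Ear1 was 15.8 in WT MP replicate 5, below 21.4 to 22.2. Camp was 109 in WT MP replicate 1, below 160 to 175. Of the genes most like Ccnd1, Scpep1 was 144 in NA MP replicate 1, below 175 to 180, and Wasf2 was 1920 in NA MP replicate 3, above 1852 to 1860.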

How the results depend on the processing

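Over 18 alternatives, 13 planned and 5 chosen after seeing the data (pseudocounts of 0.5 and 5, quantile normalization, a variance prior without trend or robust option, and sample weights), the number of called genes ran from 3332 to 4183, against 4107. Cdkn1a (0.89 to 1.12), Cdkn1b (0.23 to 0.34), Cdkn2c (0.50 to 0.57), Ccnd1 (0.27 to 0.39) and Ccnd2 (-0.22 to -0.16) kept their direction and their call in all 18, with adjusted p of at most 0.00311, 0.0266, 0.000141, 0.0201 and 0.0128. Members called were 5 or 6, with Ccnd3 the sixth. Its log2 fold change was 0.072 to 0.113 when each sample was left out, passing the threshold without NA MP replicate 1 or 4, and it was 0.10 under quantile normalization (limma adjusted p = 0.0495), where the cause was not tested. Cdk6 passed when values were scaled to equal totals (-0.11, limma adjusted p = 0.0395). That scaling moved the median of all genes from -0.01 to -0.02. With a filter of 10 in every sample, 7 of 7 tested pro-B and pre-B genes were called. In the replicate block, WT MP replicate 5 has no partner and does not enter the contrast. With this block 3693 genes and 5 members were called, beside 3708 and 5 when that sample was left out without the block. After group means were removed, same-numbered samples had correlations of 0.01, 0.00, -0.02 and 0.06. These show no profile common to a number, and whether the numbers pair the samples is not given. DESeq2 and RLE scaling, planned for raw counts, were not run, and the values were used unrounded. Depth limits Cdkn1c, Cdkn2a and Cdkn2b, at 0 to 6 reads per sample.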

Other observations

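The cells carried the markers of myeloid progenitors in both groups. Of 10 such genes, all tested, 2 were higher and 1 lower in NA MPs, beside 34.3% of all tested genes called, with a median log2 fold change of 0.02. The most abundant was Mpo, with a mean of 107675 in NA MPs and 103947 in WT MPs. Prtn3 (log2 fold change 0.19) and Cd34 (0.12) were higher and Fcgr3 (-0.57) lower. The number called ran from 2 to 6 over all alternatives, with 6 when NA MP replicate 1 was left out.

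Called genes were also found on other marker lists. Over all tested genes 34.3% were called, 16.9% higher and 17.3% lower in NA MPs. Of 10 stem cell genes, 8 were tested, 6 were higher and 1 lower (median 0.49), with Hoxb5 (a mean of 47.3 in NA MPs and 2.18 in WT MPs) and Mecom (log2 fold change 3.24) rising most. Of 10 mast cell and basophil genes, 8 were tested, 6 were higher and 1 lower (median 0.67), among them Cma1 (1.88), Fcer1a (1.38) and Hdc (-0.24). Of 10 megakaryocyte genes, 7 were tested, 1 was higher and 3 lower (median -0.28): Itga2b (0.19) rose, and Treml1 (-0.96) and Vwf (-0.51) fell most. The number called ran from 2 to 5 over all alternatives, with 2 when the variance prior had no trend or robust option. Of 9 eosinophil genes, 8 were tested, 2 were higher and 4 lower (median -0.80), with Ccr3 (2.37) and Siglecf (0.44) higher and Prg2 (-1.07) and Ear1 (-0.97) falling most. The number called ran from 3 to 8 over all alternatives, with 3 of 5 tested under a filter of 10 in every sample. Of 12 monocyte and dendritic cell genes, 9 were tested, 5 were higher and 2 lower (median 0.23): Cd68 (0.98) and Lyz2 (0.54) rose most, and Ccr2 (-0.59) and Cx3cr1 (-0.23) fell. Of 10 T and NK cell genes, 2 were tested and both were higher, Lck (2.16) and Tcf7 (1.45), while Cd3e and Cd3g were at 0 throughout. With a filter of 10 in every sample 1 of 1 was called, and with no filter beyond a value above 0 it was 3 of 8. Hoxb5, Cma1 and Ccr3 met the filter on low values only through NA MPs, and Treml1 and Ear1 did not meet it in NA MPs alone, which favours genes with a difference.

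Mitosis genes were lower by small amounts. Of 20 listed, all tested, 18 were lower in NA MPs and 0 higher, with a median of -0.18. Over all tested genes 17.3% were lower and 16.9% higher. Mki67, the marker Ki-67, averaged 4034 ± 206 for NA MPs (SD, n = 4) against 5447 ± 105 for WT MPs (SD, n = 5) (log2 fold change -0.43, limma adjusted p = 1.17e-16), and Ttk (-0.32), which encodes a spindle checkpoint kinase, was lower too. Of 20 S phase genes, all tested, 6 were lower and 1 higher, with a median of -0.06, beside 34.3% called over all tested genes, and the number called ran from 6 to 10 over all alternatives. Rrm1 (-0.33), a subunit of ribonucleotide reductase, and Cdc6 (-0.23), a loader of the replicative helicase, fell most, and Gins2 (0.15) rose.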
